A study of Mus musculus with 10 samples.

Results

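Adrenomedullin and its receptor complex were followed through 6 genes of the lung transcriptome, which together hold 2 ligands, 1 receptor and 3 receptor accessory proteins. The members were taken by name (Adm, Calca, Calcrl, Ramp1, Ramp2 and Ramp3) from a table of 54532 genes, and each name had a single row. They were chosen from the measured difference between IPF and sham lungs, which had been seen in Adm, so that difference is described here without a test and supports nothing by itself. Lungs of wild-type (WT) C57BL/6J mice were collected on postnatal day 30 (P30). For 5 libraries an aortocaval fistula, a puncture from the abdominal aorta into the inferior vena cava, had been made under isoflurane at P7 (IPF, increased pulmonary flow). For the other 5 the abdomen was opened under the same anaesthesia at P7 without the puncture (sham). Each library is called a lung here, although the labels do not say that each came from a separate animal. Expression was measured by RNA sequencing of whole lung and deposited as FPKM, fragment counts scaled to gene length and to the size of the library. Pups of both sexes were operated on according to the methods, and the labels give no sex for a sample.

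Adrenomedullin is a secreted peptide that relaxes blood vessels and tightens the barrier of their endothelium. Its receptor is a complex of the calcitonin receptor-like receptor (Calcrl), which spans the membrane and couples to Gs and cAMP, with a receptor activity-modifying protein (Ramp), which brings the receptor to the surface and sets its ligand. With Ramp2 or Ramp3 the complex prefers adrenomedullin, and with Ramp1 it prefers calcitonin gene-related peptide (CGRP), a product of Calca. In the lung Calcrl and Ramp2 are typical of endothelium, Adm is induced by hypoxia in many cell types, and CGRP is made by neuroendocrine cells and sensory nerves.

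The promoters of both ligand genes are shown because these genes carry the largest and the least certain difference among the members. Each is the 250 bases before the start of transcription in RefSeq (GRCm38.p6), read 5′ to 3′ on the strand of its gene. The Adm window is chr7:110627407-110627656 on the plus strand and the Calca window is chr7:114636358-114636607 on the minus strand. Capitals mark GCGTG, the core of one form of the hypoxia response element, or its reverse complement in Adm, and TGACG, the core of a cAMP response element, in Calca.
Adm promoter: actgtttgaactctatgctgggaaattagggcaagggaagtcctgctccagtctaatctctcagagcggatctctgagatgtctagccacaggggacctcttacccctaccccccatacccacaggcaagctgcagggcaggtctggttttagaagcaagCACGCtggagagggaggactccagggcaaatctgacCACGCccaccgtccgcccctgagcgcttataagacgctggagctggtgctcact
Calca promoter: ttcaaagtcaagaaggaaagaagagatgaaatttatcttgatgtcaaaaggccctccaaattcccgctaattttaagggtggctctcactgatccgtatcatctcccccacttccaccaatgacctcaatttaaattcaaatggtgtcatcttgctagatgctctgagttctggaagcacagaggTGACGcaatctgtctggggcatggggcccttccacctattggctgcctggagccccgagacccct

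Both strands of the windows were searched for these words and for 2 more. One was ACGTG, the other core of the hypoxia response element. The other was the E-box bound by clock factors, CACGTG, which contains the former. RefSeq windows were found for 5 of the 6 members, and Ramp2 was without one. Adm held GCGTG at 2 places, both as CACGC on its own strand, with the first base 90 and 54 bases before the start. Ramp3 held the same word at 2 places, 219 and 65 bases before the start. GCGTG was in 28.3% of all 32544 promoters. Calca held TGACG once, 65 bases before the start, a word present in 17.8% of promoters. ACGTG, present in 16.6% of promoters, and CACGTG, present in 6.03%, were in none of the 5 windows. These matches describe letters and show no binding.

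Depth overlapped between the groups. Reads recovered from FPKM and gene length numbered 16250190 to 19026843 per IPF library and 15483046 to 17818542 per sham library. Sham replicate 1 stood apart from the rest, with a mean Spearman correlation of 0.912 with the other libraries against 0.929 to 0.932 for the others. The libraries were of lung by their markers: the summed level of 9 alveolar epithelial genes was 17784 to 19696 FPKM in IPF and 13518 to 21099 FPKM in sham lungs. The groups were also divided by sex-linked genes, by which all 5 IPF lungs read as female and all 5 sham lungs as male. The methods describe an allocation balanced by sex where feasible. Xist, transcribed from the inactive X chromosome, was 34.1 ± 8.43 FPKM in IPF and 0.0493 ± 0.0225 FPKM in sham lungs (SD, n = 5), and Ddx3y, a gene of the Y chromosome, was listed at 0 in all 5 IPF lungs and at 17.4 ± 3.07 FPKM in sham lungs. The surgery and this difference cannot be told apart. The groups differed in the circadian clock as well, since 3 of 14 clock genes rose and 10 fell (adjusted p under 0.05, limma), and 13 of the 14 did not overlap. Arntl, which drives the clock, was 5.84 ± 1.50 against 0.366 ± 0.0633 FPKM, and Dbp, one of its outputs, was 2.26 ± 0.707 against 26.4 ± 2.61 FPKM. The hour of collection is not given in the sources used here, and it cannot be told apart from the surgery either.

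Adm, which encodes adrenomedullin (ENSMUSG00000030790, chr7:110627661-110629820, plus strand), was the member that separated the groups. Its level was 16.1, 12.9, 13.7, 12.9 and 11.2 FPKM in IPF replicates 1 to 5, from 320 to 443 reads. In sham replicates 1 to 5 it was 2.29, 2.17, 2.50, 2.56 and 1.86 FPKM, from 46 to 69 reads. Every IPF lung lay above every sham lung, and the lowest IPF lung and the highest sham lung were far apart compared with the spread within either group. The means were 13.4 ± 1.77 and 2.28 ± 0.279 FPKM (SD, n = 5), a difference of 2.50 ± 0.11 (SE) on the log2(FPKM + 0.1) scale, or 5.66-fold. Of the 20448 genes tested, 14 had a larger positive log2 difference. In whole lung, more cells that express a gene and more RNA per cell cannot be told apart.

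Summed markers of other cell types are given beside this difference, and their part in it was not tested. The sum of 12 pan-endothelial genes was 1591 to 1803 FPKM in IPF and 1435 to 1498 FPKM in sham lungs, which did not overlap, although 1 of the 12, Cldn5 of endothelial tight junctions, rose and 11 did not pass the test. All but Pecam1 had a difference above 0, at most 0.56 on the log2 scale, and 2 of the 12, Cldn5 and the angiopoietin receptor gene Tek (125.4 ± 11.2 against 104.3 ± 6.75 FPKM), did not overlap. Pecam1, an endothelial adhesion molecule, was 171.8 ± 12.6 FPKM in IPF and 178.0 ± 11.4 FPKM in sham lungs. Cdh5, the cadherin of endothelial junctions, was 305.6 ± 29.9 FPKM in IPF and 280.1 ± 20.2 FPKM in sham lungs. Both of these genes, named by the rule for marker genes, overlapped between the groups. The sum of 7 neutrophil genes was 54.4 to 306.6 FPKM in IPF and 16.4 to 74.0 FPKM in sham lungs, and 0 of the 7 passed (limma). All 7 lay above 0, by 0.83 to 1.46 with a median of 0.98 on the log2 scale, and Csf3r and Mmp9, a growth factor receptor and a protease of neutrophils, did not overlap. The sum of 8 contractile smooth muscle genes was 130.6 to 240.6 FPKM in IPF and 152.0 to 190.5 FPKM in sham lungs. Smtn, a smooth muscle structural gene, was the 1 gene that fell (log2 difference −0.26 ± 0.07, limma adjusted p = 0.0495), and it overlapped. In this list 3 of the 8 genes lay above 0 and 5 below. Sums of cardiac muscle (17.4 to 160.4 and 27.2 to 145.4 FPKM), adipocyte (4.23 to 13.3 and 4.66 to 7.62 FPKM) and ciliated airway markers (149.8 to 236.6 and 141.5 to 218.8 FPKM, IPF first in each case) overlapped, and no gene of these lists passed.

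An antisense gene, Gm28863, covers the Adm locus on the other strand and was listed at mean levels of 0.0545 FPKM in IPF and 0.143 FPKM in sham lungs. Its mean over all lungs was under the filter of 0.1 FPKM, so it was not tested.

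**Figure D1:**
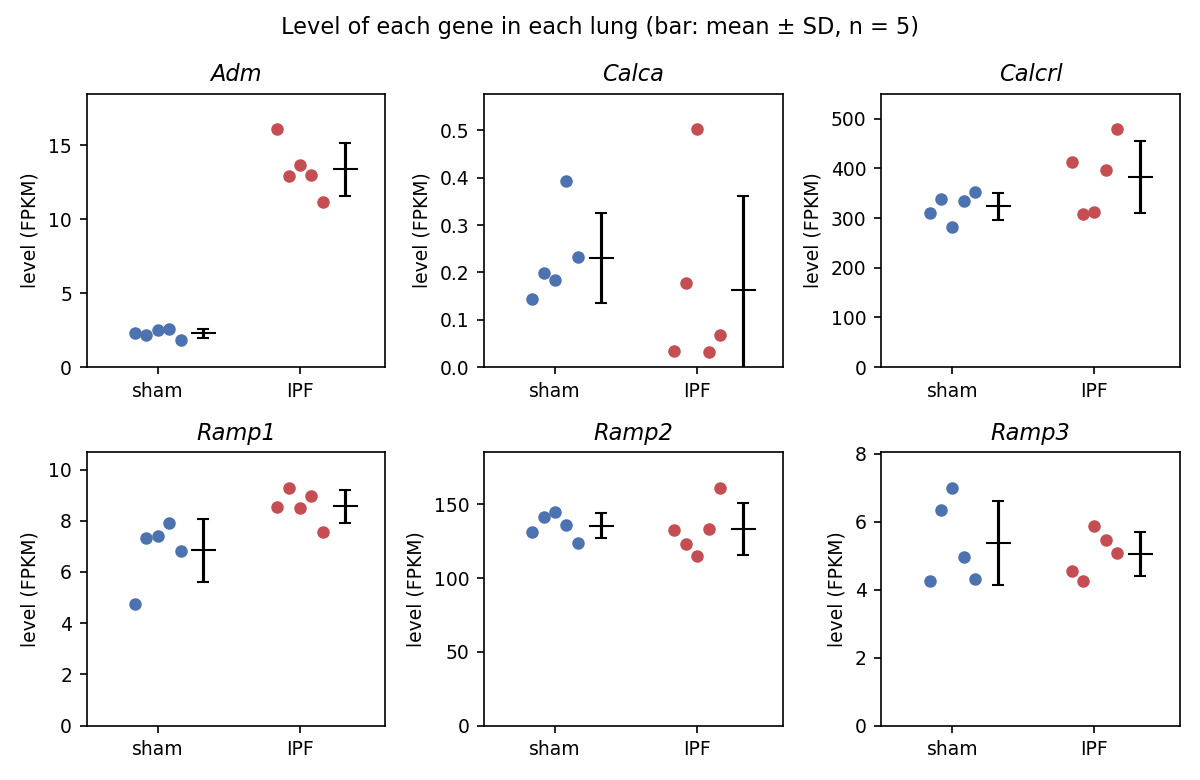
Level in FPKM (y axis, linear from 0 and scaled separately in each panel) of the 6 members in each sham (blue) and IPF (red) lung, with the mean ± SD of 5 lungs beside the points. The lower end of the Calca bar for IPF reaches below 0 and is cut by the axis. The 5 Adm points of IPF lie between 11.2 and 16.1 FPKM, above all sham points, and the groups overlap in the other 5 panels.

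Calca, whose transcripts are spliced to give calcitonin or CGRP (ENSMUSG00000030669, chr7:114631478-114636357, minus strand), was close to the limit of detection. Its level was 0.0349, 0.178, 0.503, 0.0326 and 0.0671 FPKM in IPF replicates 1 to 5, from 1 to 16 reads. Sham replicates 1 to 5 stood at 0.144, 0.199, 0.185, 0.392 and 0.234 FPKM, from 4 to 11 reads. The lowest 3 IPF lungs lay below every sham lung while IPF replicate 3 lay above all of them, so the groups overlapped. The difference was −0.55 ± 0.43 on the log2 scale and −0.92 without IPF replicate 3, so 1 lung with few reads weighed heavily in it. The pseudocount weighed heavily too, with −0.09 at a pseudocount of 1 and −1.09 at 0.01. A gene-level value does not separate the 2 products.

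Markers of neuroendocrine cells, which are known to express Calca, were uneven. Chga, one of their granule proteins, reached 6 reads at most, whereas Cplx2, a protein of vesicle release, was at 3.39 FPKM in IPF and 3.89 FPKM in sham lungs, and Uchl1, a neuronal ubiquitin hydrolase, at 2.84 and 5.03 FPKM. Syp, a synaptic vesicle protein, was at 0.935 FPKM in IPF and 0.660 FPKM in sham lungs without overlap (log2 difference 0.45, not passed), and Pcsk1, a prohormone convertase, at 0.228 and 0.104 FPKM (0.66, not passed). Of the 10 genes listed 6 could be tested and 1, Uchl1, fell, with a summed level of the list of 6.61 to 9.56 FPKM in IPF and 9.46 to 11.1 FPKM in sham lungs. Thyroid tissue, whose C cells make calcitonin, was looked for with 5 thyroid genes. Tg, thyroglobulin, averaged 0.137 FPKM in IPF and 0.145 FPKM in sham lungs, Pax8 had 0 reads, and the sums of 0.490 to 2.58 and 0.746 to 1.82 FPKM overlapped.

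Calcrl, the receptor that every complex contains (ENSMUSG00000059588, chr2:84330626-84425411, minus strand), had the highest FPKM of the members with the gene lengths of the table, and overlapped between the groups. It stood at rank 67 of all genes by mean FPKM, above 99.7% of the genes tested. Its level was 412.9, 307.1, 312.6, 396.9 and 478.7 FPKM in IPF replicates 1 to 5. In sham replicates 1 to 5 it was 310.1, 337.4, 281.8, 335.0 and 352.8 FPKM. The highest 3 IPF lungs lay above every sham lung, and the other two lay within the sham range. The difference was 0.22 ± 0.13 on the log2 scale, and 0.14 without IPF replicate 5, with means of 381.6 ± 72.4 and 323.4 ± 27.8 FPKM. The IPF lungs varied more among themselves, with a coefficient of variation of 19.0% against 8.61%.

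Relative to endothelial RNA the level of Calcrl overlapped between the groups. Calcrl amounted to 22.3 ± 3.23% of the summed pan-endothelial level in IPF and 22.1 ± 2.06% in sham lungs. Subsets of endothelium overlapped: the general capillary sum was 740.1 to 873.5 FPKM in IPF and 750.7 to 800.2 FPKM in sham lungs, with Aplnr, the apelin receptor, the 1 gene of 6 that rose. The aerocyte capillary sum was 394.8 to 508.7 and 408.9 to 455.0 FPKM with 0 of 6 genes passing, and the lymphatic sum was 136.0 to 291.2 and 241.6 to 279.7 FPKM with 0 of 5 passing (limma). In the lymphatic sum 4 of 5 IPF lungs lay below every sham lung, and the ranges overlapped through IPF replicate 5, at 291.2 FPKM. Most of this sum was Lyve1, at 179.3 ± 57.1 FPKM in IPF and 244.8 ± 13.0 FPKM in sham lungs. Of the 5 lymphatic genes 3 lay above 0 and 2, Lyve1 among them, below it, with a median of 0.06.

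Ramp1, the partner for CGRP (ENSMUSG00000034353, chr1:91179822-91225196, plus strand), was the accessory gene that came nearest to separating the groups. Its level was 8.55, 9.29, 8.51, 8.95 and 7.57 FPKM in IPF replicates 1 to 5. Sham replicates 1 to 5 stood at 4.74, 7.33, 7.42, 7.91 and 6.83 FPKM. All IPF lungs but replicate 5 lay above every sham lung, and the lowest sham value was in replicate 1, the library that stood apart. The difference was 0.34 ± 0.13 on the log2 scale and 0.21 without sham replicate 1.

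Ramp2, the main partner for adrenomedullin in endothelium (ENSMUSG00000001240, chr11:101246028-101259546, plus strand), was abundant and overlapped throughout. Its level was 132.4, 123.3, 114.7, 133.6 and 161.3 FPKM in IPF replicates 1 to 5. In sham replicates 1 to 5 it was 131.3, 141.7, 144.6, 136.1 and 123.5 FPKM. Both the lowest and the highest lung were IPF lungs. The difference was −0.03 ± 0.09 on the log2 scale, and it took the opposite sign, at 0.02, without IPF replicate 3.

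Ramp3, the other partner for adrenomedullin (ENSMUSG00000041046, chr11:6658521-6677475, plus strand), was the least abundant of the accessory genes. Its level was 4.56, 4.26, 5.86, 5.45 and 5.08 FPKM in IPF replicates 1 to 5. Sham replicates 1 to 5 stood at 4.26, 6.34, 7.00, 4.96 and 4.32 FPKM. The groups overlapped, and the highest 2 lungs were sham lungs. The difference was −0.07 ± 0.15 on the log2 scale and 0.03 without sham replicate 3. An antisense gene over part of the locus, Gm11978, averaged 0.00834 FPKM in IPF and was listed at 0 in sham lungs.

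Across the members, all 6 passed the filter of a mean of at least 0.1 FPKM, and 1 of the 6, Adm, did not overlap between the groups. Over all 20448 genes tested, 7.29% did not overlap. Because the members were chosen from this contrast, nothing is read from their share. The median difference over all genes tested was 0.00, with quartiles of −0.17 and 0.17.

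**Figure D2:**
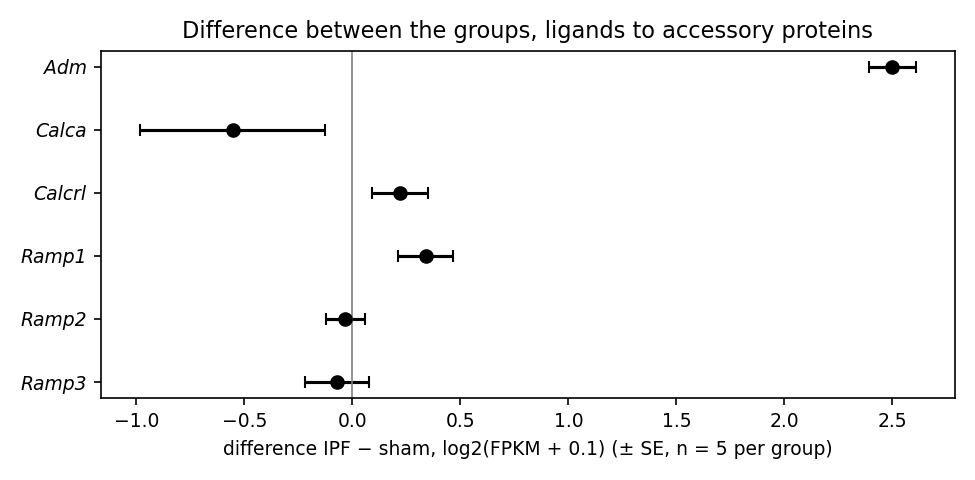
Difference between IPF and sham lungs for each member on the log2(FPKM + 0.1) scale (x axis), with bars of ± 1 SE from the limma model (n = 5 per group) and a line at 0. Adm lies at 2.50, Calcrl and Ramp1 lie at 0.22 and 0.34, Ramp2 and Ramp3 lie near 0, and Calca has the widest bar.

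The members differed far more from each other than most did between groups. Over the 10 lungs the mean level, per length of gene, was 352.5 FPKM for Calcrl, 134.3 for Ramp2, 7.82 for Adm, 7.71 for Ramp1, 5.21 for Ramp3 and 0.197 for Calca. Neighbours were then set side by side within each lung, without a test, since the order was taken from the same lungs. Calcrl exceeded Ramp2 in 10 of 10 lungs by a mean of 1.38 ± 0.21 (SD) on the log2 scale, Ramp2 exceeded Adm in 10 of 10 by 4.57 ± 1.36, and Ramp3 exceeded Calca in 10 of 10 by 4.30 ± 0.72. The levels of these pairs did not overlap over the lungs. Ramp1 exceeded Ramp3 in 10 of 10 lungs by 0.56 ± 0.33, although their ranges over the lungs overlapped. Adm and Ramp1 had no common order: Adm was the higher in all 5 IPF lungs and the lower in all 5 sham lungs. The place of Adm depended on the group. By group means it was the third gene in IPF lungs and the fifth, below Ramp3, in sham lungs.

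The distance between Calcrl and Ramp2 depended on the length assigned to Ramp2. In the table Ramp2 is 3301 bases long and its gene model runs through Vps25, a gene on the same strand at chr11:101253707-101259549 that encodes a subunit of the ESCRT-II complex. Vps25 was listed at 0.0716 to 0.585 FPKM, whereas its partners in the complex, Snf8 and Vps36, picked after their values were seen, were at 11.2 to 14.6 and 19.5 to 23.6 FPKM. In these values reads of Ramp2 and Vps25 cannot be told apart. In the GENCODE vM39 annotation, 8 of 21 Ramp2 transcripts are protein-coding and end before Vps25, and the longest has 1614 bases. Only Ramp2 was given a transcript length, and the other members kept the gene lengths of the table. With that length Ramp2 stood at 234.6 to 329.9 FPKM, and Calcrl was higher in 9 of 10 lungs by a mean of 0.35 ± 0.21 (SD) on the log2 scale. With their median length of 1352 bases Ramp2 stood at 280.1 to 393.8 FPKM, and the mean difference of 0.09 ± 0.21 lay within its spread. Calcrl was then the higher in 5 of 5 IPF lungs and in 2 of 5 sham lungs, where the mean of Ramp2 was 330.7 FPKM against 323.4 FPKM for Calcrl. The length is the same in every lung and so leaves the difference between groups as it was, but reads of Vps25 counted in Ramp2 could differ between lungs, and their part was not tested.

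Ramp2 made up most of the accessory protein RNA in both groups. Ramp2 gave 90.6 ± 1.42% of the summed Ramp level in IPF and 91.8 ± 1.06% in sham lungs. With the longest shorter transcript for Ramp2, and the lengths of Ramp1 and Ramp3 unchanged, it was 94.2 to 96.8% over all lungs. Ramp1 gave 5.93 ± 0.958% in IPF and 4.63 ± 0.748% in sham lungs. Ramp3 gave 3.48 ± 0.660% in IPF and 3.61 ± 0.593% in sham lungs. All 3 shares overlapped. The ratio of Ramp1, the CGRP partner, to Ramp3 was 1.73 ± 0.303 in IPF and 1.30 ± 0.264 in sham lungs, which overlapped as well.

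The ratio of ligand to receptor followed Adm. Adm as a percentage of the Calcrl level was 3.89, 4.21, 4.37, 3.26 and 2.33 in IPF replicates 1 to 5. In sham replicates 1 to 5 it was 0.737, 0.643, 0.887, 0.764 and 0.528. The groups did not overlap, and in both groups replicate 5, with the lowest Adm and the highest Calcrl, was lowest. In IPF lungs Calcrl exceeded Adm by a factor of 29.2 ± 8.22, against 144.8 ± 29.2 in sham lungs. Ramp2 relative to Calcrl was 0.353 ± 0.0320 in IPF and 0.423 ± 0.0586 in sham lungs, and relative to the pan-endothelial sum it was 7.81 ± 0.727% and 9.26 ± 0.511%, both of which overlapped. Relative to that sum, Adm was 0.788 ± 0.113% in IPF and 0.156 ± 0.0187% in sham lungs without overlap.

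**Figure D3:**
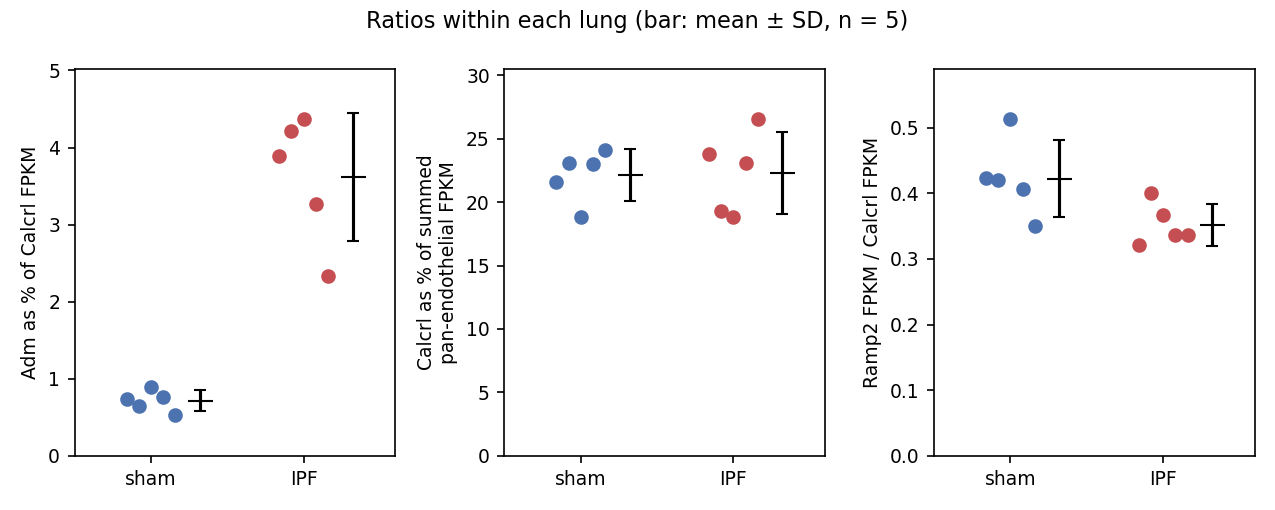
Ratios within each lung (y axes, linear from 0), for sham (blue) and IPF (red), with the mean ± SD of 5 lungs beside the points. Adm as a percentage of Calcrl is 2.33 to 4.37 in IPF and 0.528 to 0.887 in sham lungs, while Calcrl as a percentage of summed pan-endothelial FPKM and the ratio of Ramp2 to Calcrl overlap.

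Other genes of the pathway were read from 3 lists: further calcitonin family peptides with the proteins that bind or process them, the cAMP cascade below the receptor, and hypoxia-inducible factors with their targets. Of 51 genes tested, 2 rose and 5 fell (limma, Benjamini-Hochberg adjusted p under 0.05), or 3.92% and 9.80%. Over all genes tested these shares were 3.71% higher in IPF and 2.14% lower, and 1 of the 51, Ddit4, also differed by more than 1 on the log2 scale, against 1.14% of all genes. The p-values measure the spread between these libraries, which may be technical. Nothing particular to the lists is read from these counts.

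No gene of the calcitonin peptide family list passed. Of 12 genes 11 were tested, Iapp (amylin) having 0 reads, and 0 passed with limma and 0 with limma-voom, with 5 of 11 at an unadjusted p under 0.05, a level that 19.5% of all genes tested reached. All 11 differences lay above 0, with a median of 0.19 against 0.00 over all genes. It was 10 of 11 without IPF replicate 1 or 4 or sham replicate 1 or 3. Calcb and Calcr had at most 25 and 26 reads in a lung. Of the pan-endothelial genes 11 of 12 lay above 0 as well. The summed level of the calcitonin list was 199.5 to 212.8 FPKM in IPF and 175.9 to 195.3 FPKM in sham lungs without overlap. The smallest adjusted p belonged to Mme, neprilysin, which degrades small peptides (20.6 ± 1.34 against 17.8 ± 1.02 FPKM, log2 difference 0.21 ± 0.06, adjusted p = 0.0700). Next came Arrb2, a beta-arrestin that binds activated receptors (11.4 ± 0.401 against 9.86 ± 0.894 FPKM, 0.22 ± 0.07, adjusted p = 0.0980). Mme rose without sham replicate 5 (log2 difference 0.24, adjusted p = 0.0467). Of the 11 genes 2, Arrb2 and Pam, did not overlap between the groups.

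Among genes that act on adrenomedullin itself, Pam, the enzyme that amidates the peptide, differed by 0.16 (adjusted p = 0.104) and Ackr3, a decoy receptor, by 0.28 (16.0 ± 2.97 against 13.2 ± 2.49 FPKM, adjusted p = 0.355). Gpr182, an endothelial receptor that has been studied as a partner of the family, differed by 0.26 (adjusted p = 0.248). Adm2, encoding the related peptide intermedin, had at most 8 reads in a lung.

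Below the receptor the cAMP list held 1 gene that rose and 2 that fell among 20, with a median of −0.00. Adcy3, an adenylyl cyclase, rose from 3.16 ± 0.175 FPKM in sham to 4.52 ± 0.510 FPKM in IPF lungs (log2 difference 0.50 ± 0.09, adjusted p = 0.00800). Adcy2, another adenylyl cyclase, fell from 12.6 ± 1.03 to 9.85 ± 0.672 FPKM (−0.35 ± 0.07, adjusted p = 0.0153). Rapgef4, the cAMP sensor Epac2, fell from 4.86 ± 0.391 to 3.78 ± 0.342 FPKM (−0.35 ± 0.08, adjusted p = 0.0311), and none of the 3 overlapped. Adcy1 (0.229 FPKM in IPF and 0.333 FPKM in sham lungs, not passed) did not overlap either, which made 4 of the 20 genes. Rapgef4 did not pass with the replicate number as a block (adjusted p = 0.0658), nor without IPF replicate 1, 2 or 4 or sham replicate 1, 2 or 3, with adjusted p from 0.0151 to 0.0763 over all alternatives. The other 17 genes did not pass, among them the kinase subunits and Gnas, the Gs alpha subunit.

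In the hypoxia list, to whose targets Adm itself is counted in textbooks, more genes fell than rose. Of 20 genes tested 1 rose, 3 fell and 16 did not pass, with a median of −0.13. Ddit4, an inhibitor of mTORC1 signaling induced by hypoxia and stress, fell from 30.6 ± 5.08 to 13.8 ± 1.60 FPKM (−1.14 ± 0.12, adjusted p = 0.000432). Pfkfb3, a regulator of glycolysis, fell from 21.0 ± 3.09 to 13.2 ± 1.10 FPKM (−0.66 ± 0.10, adjusted p = 0.00336). Bhlhe40, a transcriptional repressor that also takes part in the clock, fell from 15.1 ± 0.681 to 10.4 ± 1.71 FPKM (−0.55 ± 0.10, adjusted p = 0.00825). P4ha1, a collagen prolyl hydroxylase, was the gene that rose, from 30.8 ± 0.767 to 39.8 ± 4.45 FPKM (0.36 ± 0.07, adjusted p = 0.0153). These 4 genes did not overlap between the groups. Egln1, also in the list, did not overlap either and was higher in IPF (31.8 ± 0.943 against 29.8 ± 0.867 FPKM, log2 difference 0.10, not passed). That made 5 of the 20 genes, beside 7.29% of all genes tested. Hif1a and Epas1, the oxygen-regulated subunits, and Vegfa, a classical target, differed by −0.12, −0.05 and −0.17 and did not pass.

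**Figure D4:**
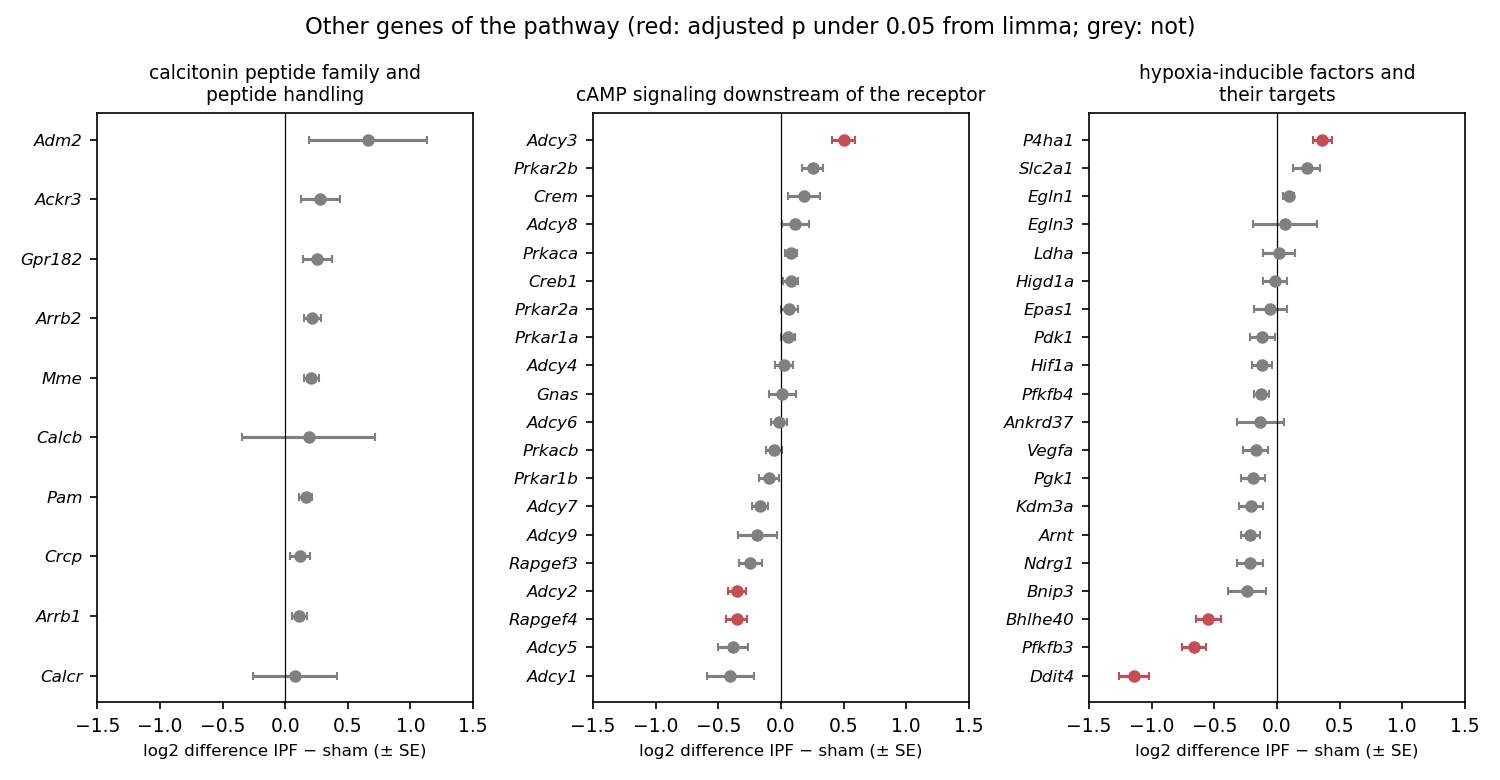
Log2 difference between IPF and sham lungs (x axis, ± 1 SE from limma, n = 5 per group) for tested genes of the calcitonin family list (10 of the 11 are drawn), the cAMP list (20) and the hypoxia list (20), sorted within each list. Red marks an adjusted p under 0.05 (0, 3 and 4 genes), and all 10 points of the first list lie above 0.

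The genes whose pattern was most like that of Adm over the 10 lungs followed the division of the groups. By Pearson's r of log2 levels they were Rnf144a (0.995), St6galnac3 (0.993), Xist (0.991), Arntl (0.987) and Nfil3 (0.982). Xist and Arntl are the sex-linked and clock genes given above, and these correlations rest on 2 separate groups of 5 lungs. With the group means taken off, Adm was most like Gm28529 (0.910), Dlg3 (0.907) and Gm11611 (0.891). Calcrl was then most like Epop (0.974), Nab1 (0.971) and Afap1l1 (0.968), and Ramp2 most like Kank3 (0.961), Tbc1d10b (0.949) and Pard6g (0.945). Ramp1 was most like Mydgf (0.985), Chchd2 (0.980) and Tmem14c (0.974), and Ramp3 most like Tmem125 (0.930), Fdft1 (0.927) and Srgn (0.901). These values describe 10 points that share libraries and are picked from all genes with a mean of at least 1 FPKM.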

How the data were processed

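Whole-lung libraries, 5 IPF and 5 sham, were profiled. According to the study's methods, the authors trimmed reads with Fastp, aligned them with HISAT2 and quantified genes with StringTie; the deposited values are FPKM per gene, beside a gene length column that was used for recovering reads. The methods name GRCm39, but the positions are those of GRCm38, with 195323493 as the largest gene end on chromosome 1, and the submitters' processing notes name Bowtie 0.12.2 and the builds GRCm38, mm10 and hg38. The kit is KAPA mRNA HyperPrep in the methods and NEBNext Ultra in the labels. All values came out as whole reads within 0.01 of a read, 15483046 to 19026843 per library, and the precision of low genes is set by these reads. The deposited FPKM values were modelled, and the recovered reads served for an alternative.

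Genes with a mean of at least 0.1 FPKM were fitted on log2(FPKM + 0.1) with limma 3.58.1 (R 4.3.3, trended variance, Benjamini-Hochberg adjustment over 20448 genes), so fold changes of low genes are understated. Other steps used Python 3.11.15 and scipy 1.17.1. The fit was tested on simulated data. Members and lists were chosen with earlier results of these data known. Named were all 6 members; in each pathway list every gene with adjusted p under 0.05, or the 6 smallest if more, or the 2 smallest if none; for the other lists, the counts, sums and marker genes set by name; and the genes most like each member (5 for Adm, 3 for each member after removing group means). Other names, and the shorter Ramp2 lengths, were chosen after seeing the data. Calca was left out of the likeness search, having a mean under 1 FPKM. Replicate pairs within a group differed beyond sampling noise (chi-square per degree of freedom 4.78 to 37.3). Correlations of the deviations of same-numbered samples were −0.04 to 0.17, so the numbers do not pair the samples. Alternatives were other pseudocounts, filters and scaling, a replicate block, no variance trend, limma-voom on recovered reads and leaving out each library. Ca9, Ccl21a and Dnai1 had no single row and were not used. Values of some list genes are not reported here.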

Additional observations from a re-analysis of the deposited data

Results flagged for a closer look

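In 7 of 50 groups of 5 lungs examined, one lung lay far from the other 4 by Dixon's test, where chance gives about 1 in 20; none of the 6 members was among them. P4ha1, the hypoxia-list gene that rose, was 32.1 FPKM in sham replicate 1 against 30.3 to 30.6 in the other sham lungs. The summed contractile smooth muscle level was 240.6 FPKM in IPF replicate 3 against 130.6 to 159.8. The summed neutrophil level was 306.6 FPKM in IPF replicate 5 against 54.4 to 77.4. This lung also had the highest Calcrl and Ramp2 and the lowest Adm of its group. Its summed level of the 14 clock genes was 170.5 FPKM, against 93.8 to 112.0 FPKM in the other IPF lungs. In sham lungs that clock sum was 303.2 to 360.4 FPKM. The summed cardiac muscle level was 160.4 FPKM in IPF replicate 4 against 17.4 to 55.6, and 145.4 FPKM in sham replicate 3 against 27.2 to 38.0. The summed adipocyte level was 7.62 FPKM in sham replicate 5 against 4.66 to 5.35. The summed alveolar epithelial level was 13518 FPKM in sham replicate 1 against 19437 to 21099. Without these lungs Adm differed by 2.43 to 2.56 on the log2 scale, the range over every single lung left out.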

How the results depend on the processing

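The difference of Adm was 2.13 with a pseudocount of 1, which pulls low genes together, and 2.43 to 2.56 with each library left out. The others ranged over left-out libraries from −0.92 to −0.37 for Calca (−1.09 to −0.09 over the other settings, none with a minimum mean of 1 FPKM, which removes it), 0.14 to 0.30 for Calcrl, 0.21 to 0.40 for Ramp1, −0.10 to 0.02 for Ramp2 and −0.15 to 0.03 for Ramp3. Members without overlap numbered 1 to 2, with Ramp1 the second without IPF replicate 5 or sham replicate 4. Genes past both limits numbered 74 with a pseudocount of 1 and 154 with a minimum mean of 1 FPKM against 233, and 171 to 299 with a library left out. Genes higher numbered 494 to 950 against 759, with the lowest count without IPF replicate 4. Genes lower numbered 274 to 670 against 437: 286 without IPF replicate 2, 281 without IPF replicate 4, 274 without sham replicate 3 and 670 without IPF replicate 5. In the pathway lists the calcitonin family had 0 to 1 higher (Mme without sham replicate 5), the cAMP list 1 to 3 lower and the hypoxia list 3 to 5 lower, with 5 without IPF replicate 5, where Bnip3 and Kdm3a were added. The cause was not tested. With the replicate number as a block, Adm differed by 2.50, 660 genes were higher and 385 lower, and of the named calls that of Rapgef4 was lost, while Adcy5 passed (adjusted p = 0.0464). Adcy2, Adcy3, P4ha1, Ddit4, Bhlhe40 and Pfkfb3 passed in all 18 alternatives. By mean FPKM over the lungs used, the order of levels had all 5 neighbouring pairs except in sham lungs alone and without any one IPF lung, where it had 4. Within lungs the pair of Adm and Ramp1 did not hold, with Adm higher in 5 of 10 and a mean log2 difference of −0.45. Calca rests on 1 to 16 reads a lung and varied widely among IPF lungs, and sex, hour of collection and surgery cannot be told apart.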
